A study of Homo sapiens with 6 samples.

Results

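Long stretches that carried H3K27me3 as 1 uninterrupted island in Pfeiffer cells were found as strings of shorter islands in KARPAS-422 cells. These domains were picked from the positions in both lists of enriched islands: an autosomal Pfeiffer island was a member when at least 3 KARPAS-422 islands overlapped it by 1 base or more and all of these were under 50 kb. Of the 21258 autosomal islands in the Pfeiffer list, 852 met this rule, or 4.01%. The 3 lists of the series held 71913 autosomal islands in all. Because the members were selected from the broken state itself, their number of pieces, covered share and breaks are given as a description. The converse, KARPAS-422 islands overlapped by at least 3 Pfeiffer islands under 50 kb, numbered 261 of 27589, or 0.946%.

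KARPAS-422, WSU-DLCL2 and Pfeiffer are established lines of diffuse large B cell lymphoma, a cancer of mature B cells, and all of them carry mutant EZH2 per the labels. Their average gIC50 values are 232, 134 and 28 nM in the labels, which do not name the compound, while the design text speaks of sensitivity to GSK126, an inhibitor of EZH2. No treatment with an inhibitor is given for these cells. A line is represented by 1 H3K27me3 and 1 input library (sheared chromatin without immunoprecipitation), so no spread between replicates can be given, no test between lines was possible and every comparison below describes these libraries.

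EZH2 is the catalytic subunit of Polycomb repressive complex 2, which methylates lysine 27 of histone H3. The trimethylated form, H3K27me3, marks repressed chromatin. Another subunit of the complex, EED, binds the mark and stimulates the enzyme, which lets the mark spread along chromatin into broad domains. Recurrent EZH2 mutations of germinal centre lymphomas raise the formation of the trimethylated state. An island is a run of enriched windows of 750 bases, in which unenriched stretches of up to 3 windows are bridged. A break, a stretch between neighbouring KARPAS-422 islands of a member, was therefore never shorter than 3000 bases. A break means that no island was listed there, not that the mark was absent. No annotation of hg19 was used here, so domains are named by hg19 position and not by gene.

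The autosomal islands held 16039824 H3K27me3 reads in KARPAS-422, 17188115 in WSU-DLCL2 and 17024803 in Pfeiffer, and 5694645, 8224578 and 8800268 input reads in the same order. They covered 712, 714 and 738 Mb. A median island had 20.1, 20.9 and 19.7 H3K27me3 reads per kb, and 7.50, 10.7 and 10.8 input reads per kb. The totals of the whole libraries are not known from these lists, so reads per kb printed for several lines are not scaled to each other, and levels were compared between lines only after division by the median island of the list.

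The broken Pfeiffer islands were long. Their median length was 77.25 kb (quartiles 56.25 and 103.5 kb, range 13.5 to 662.25 kb), against 20.25 kb for the whole Pfeiffer list (quartiles 12.75 and 38.25 kb). They were 4.01% of the islands but held 75 Mb, or 10.2% of the bases covered in Pfeiffer. At least 50 kb was reached by 708 of the 852, and only 3 were under 20 kb. Length enters the rule, since a short island has no room for 3 separate islands. In KARPAS-422 the members were met by 3078 different islands, 11.2% of that list, which were 14.25 kb long at the median (quartiles 9 and 24 kb). Exactly 3 pieces were found in 563 members, 4 in 175, 5 in 57 and 6 or more in 57, and the highest number was 16. The longest piece of a member had a median length of 27 kb and took a median of 32.7% of the Pfeiffer island.

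**Figure D1:**
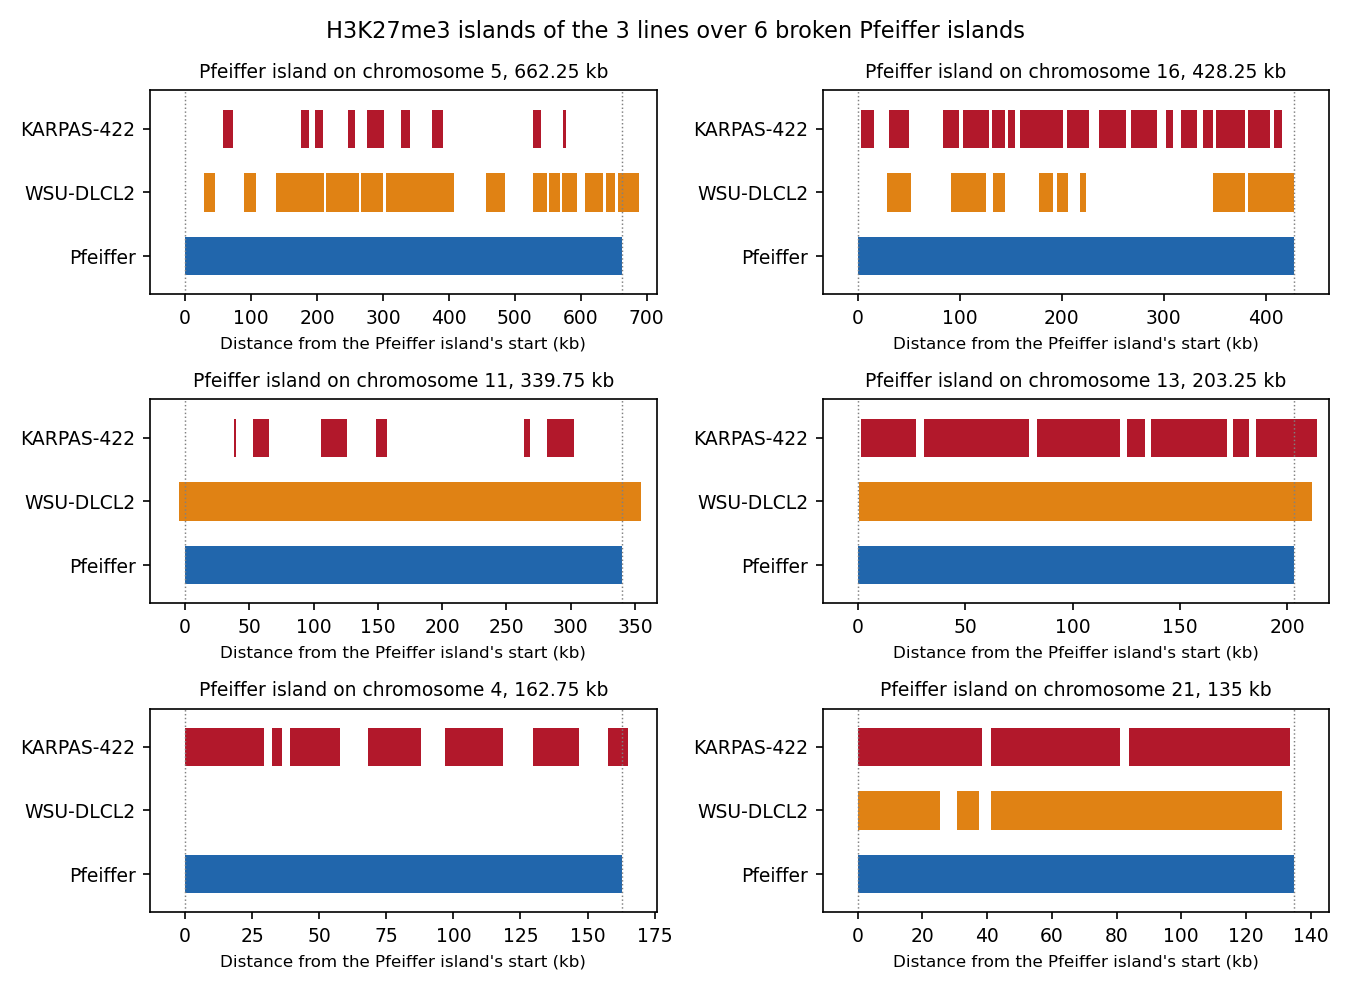
Islands of KARPAS-422 (top), WSU-DLCL2 (middle) and Pfeiffer (bottom) over 6 broken Pfeiffer islands, drawn to scale in kb from the start of the Pfeiffer island; dotted lines mark its ends. KARPAS-422 has 9, 16, 6, 7, 7 and 3 islands in reading order, while WSU-DLCL2 has 13, 8, 1, 1, 0 and 3.

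The plot of 6 domains shows how different the broken state can be. The longest member lay on chromosome 5 from 13969501 to 14631750, 662.25 kb in Pfeiffer. KARPAS-422 had 9 islands of 4.5 to 25.5 kb there, which covered 18.3% of it, and WSU-DLCL2 had 13 islands covering 64.9%. H3K27me3 reads per kb were 16 to 22.2 in the KARPAS-422 pieces, 16.05 to 27.1 in the WSU-DLCL2 islands and 24.9 in the Pfeiffer island. Input reads per kb were 5.02 to 7.69, 8.00 to 12.4 and 14.5 in the same order. Most of this domain was therefore without a KARPAS-422 island, and the longest of its breaks was 136.5 kb.

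The member with most pieces lay on chromosome 16 from 24122251 to 24550500. KARPAS-422 had 16 islands of 6.75 to 42.75 kb over this domain of 428.25 kb, and still covered 69.9% of it. WSU-DLCL2 had 8 islands there and covered less, 41.3%. This Pfeiffer island held 35.9 H3K27me3 reads and 19.1 input reads per kb, which is 1.82 and 1.78 times the median island of its list. The KARPAS-422 pieces held 16.4 to 21.5 H3K27me3 reads and 5.75 to 7.84 input reads per kb, close to the medians of 20.1 and 7.50 of that list.

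Other members were broken by the shortest gaps the method can show. On chromosome 21 from 46053751 to 46188750 KARPAS-422 had 3 islands of 38.25, 39.75 and 49.5 kb, separated by breaks of 3 kb, and covered 94.4% of the 135 kb. This was the highest covered share of any member of at least 50 kb. Reads per kb were 22.5, 21.4 and 23.6 in these pieces and 23.3 in the Pfeiffer island. The other members of this set lay on chromosome 9 from 102095251 (93.7% covered), chromosome 12 from 48263251 (93.6%) and chromosome 22 from 45406501 (93.6%), each with 3 pieces and no break over 3 kb. At the opposite end, KARPAS-422 covered 14.7% of 285 kb on chromosome 5 from 17069251 to 17354250 and 20.2% of 78 kb on chromosome 8 from 53041501 to 53119500. WSU-DLCL2 covered 34.2% of the domain on chromosome 5 and had no island over that on chromosome 8.

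KARPAS-422 kept most of the bases of the members. Its pieces covered 49.9 of the 75 Mb, or 66.6%. The share covered in a single member had a median of 72.3% (quartiles 59.3 and 82.4%, range 14.7 to 94.4%). At least 50% was covered in 745 members and at least 90% in 32, while 107 had under 50% and 8 under 25%. Both outermost windows of the Pfeiffer island were covered in KARPAS-422 in 236 members, 1 of them in 358 and neither in 258. In 418 members the pieces ran past an end of the Pfeiffer island, by 4.92 Mb in all.

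The 25.1 Mb without a KARPAS-422 island were made up of 2236 breaks between pieces (17.1 Mb) and of stretches at the ends of members (7.94 Mb). Breaks were short by number and long by bases. Exactly 3 kb, the shortest possible, was the length of 763 breaks (34.1%), and 1353 (60.5%) were under 5 kb. The median break was 3.75 kb (quartiles 3 and 8.25 kb) and the longest 155.25 kb. Breaks of at least 10 kb were 20.1% of all breaks and held 54.7% of the break bases. In 299 members every break was under 5 kb, in 317 at least 1 break reached 10 kb and in 77 at least 1 reached 25 kb. When each Pfeiffer island was divided into 3 equal parts, 642 breaks were centred in the first, 919 in the middle and 675 in the last. Breaks can lie only between pieces, so the middle is favoured by definition.

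**Figure D2:**
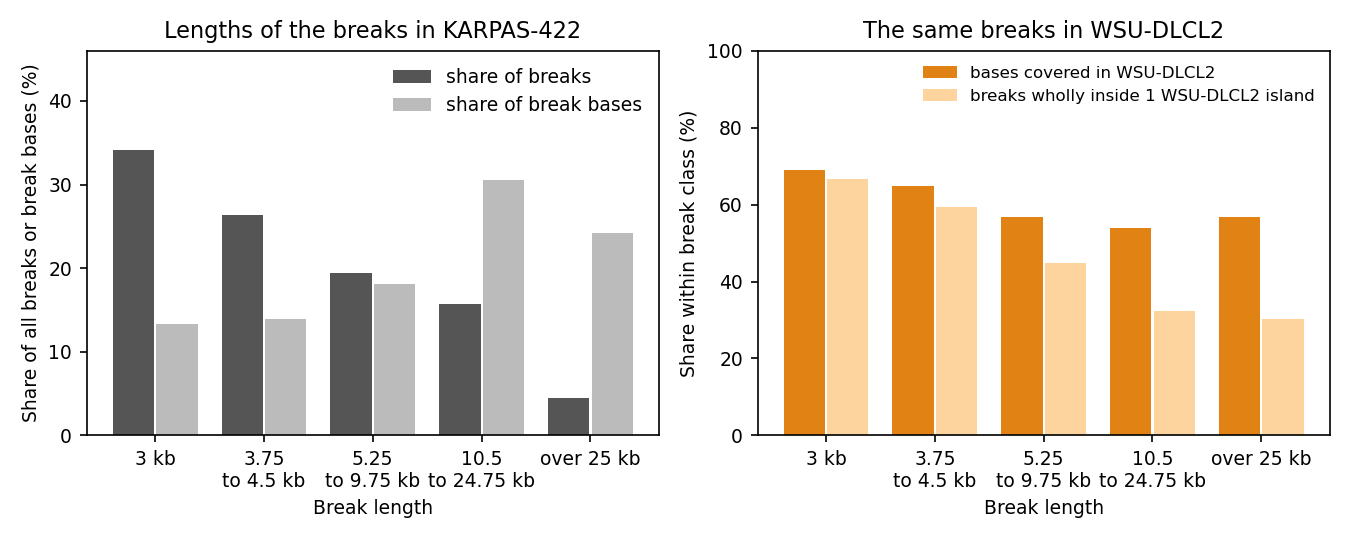
Left, share of the 2236 breaks (dark) and of their bases (light) by break length in KARPAS-422, in percent; right, for the same classes, share of break bases covered in WSU-DLCL2 and share of breaks wholly inside 1 WSU-DLCL2 island. Breaks of 3 kb are 34.1% of breaks and 13.4% of bases, and 66.7% of them lie inside 1 WSU-DLCL2 island, against 30.3% of breaks over 25 kb.

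The 4 longest breaks lay in members of chromosomes 16, 5, 8 and 11. On chromosome 16 from 12691501 to 13180500, a member of 489 kb, a break of 155.25 kb separated pieces of at most 24.75 kb. On chromosome 8 from 81387751 to 81561750 a break of 114 kb took most of the 174 kb, and 2 WSU-DLCL2 islands covered 76.3%. On chromosome 11 from 124986751 to 125326500 the longest break was 106.5 kb, and WSU-DLCL2 had 1 island over the whole 339.75 kb.

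WSU-DLCL2, the line the rule did not use, showed a single island over some of the members and was broken too at others. A single WSU-DLCL2 island met 309 members, or 36.3% (95% exact binomial interval 33 to 39.6%), 2 islands met 257 (30.2%), 3 or more met 239 (28.1%) and none met 47 (5.52%). Such intervals, here and in the plot by length, cover counting error only and take islands as independent. Over all Pfeiffer islands, a single WSU-DLCL2 island met 64.3% of those under 20 kb and 67.1% of those of 20 to 50 kb. At 50 to 75, 75 to 100, 100 to 150 and 150 kb or more it met 53.9%, 45.5%, 35.6% and 23.9%. Members in these longer classes had lower shares, 42.4%, 28.9%, 28.1% and 20.6%. The covered share in WSU-DLCL2 had a median of 82.0% (quartiles 55.3 and 94.5%). It was larger than that in KARPAS-422 in 532 of 852 members, smaller in 308 and equal in 12. The rule picked members by their breaks in KARPAS-422, so this comparison favours WSU-DLCL2 by construction and shows no difference between the lines. One WSU-DLCL2 island alone covered at least 95% of 162 members, and 109 of these wholly. The full rule, 3 or more WSU-DLCL2 islands all under 50 kb, was met by 180 members. This is 21.1% of the members and 37.7% of the 478 Pfeiffer islands broken in WSU-DLCL2, which were 2.25% of the Pfeiffer list. The 2.25% includes short islands, which have no room for 3 pieces. At lengths of at least 50 kb the rule in WSU-DLCL2 was met by 24.4% of the members and by 403 of all 3725 Pfeiffer islands (10.8%).

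**Figure D3:**
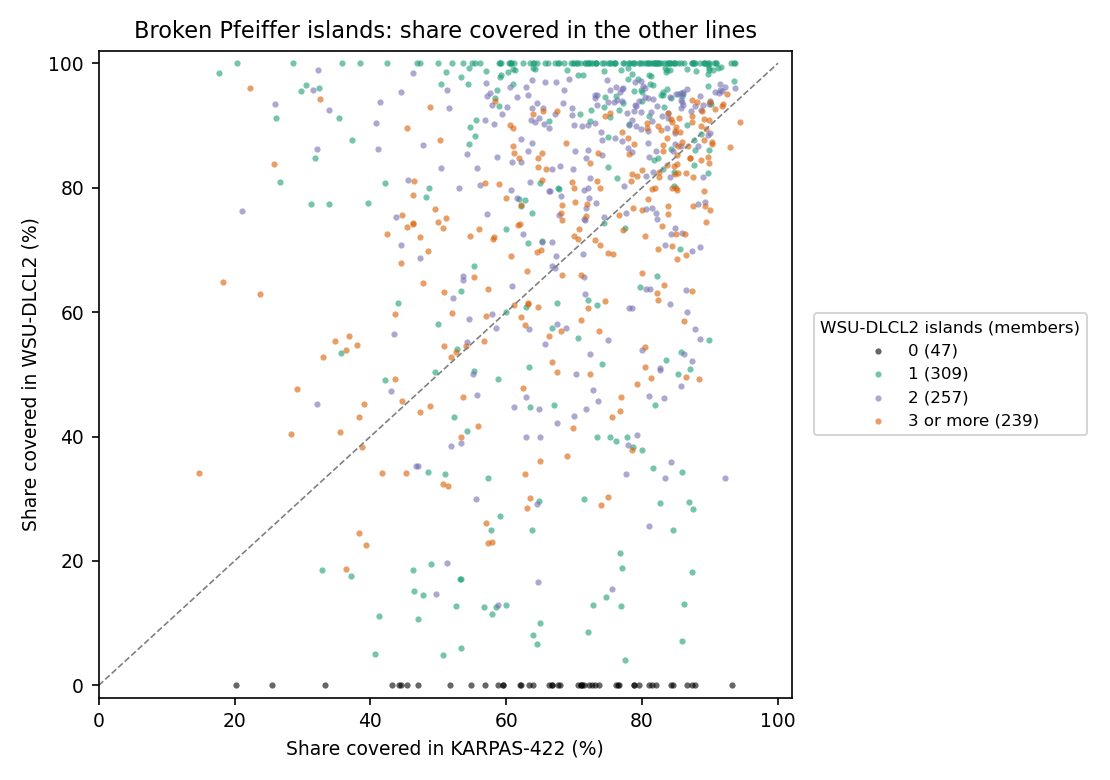
Each point is 1 of the 852 broken Pfeiffer islands, placed by the share of its bases covered in KARPAS-422 (x axis, percent) and in WSU-DLCL2 (y axis, percent), coloured by the number of WSU-DLCL2 islands that meet it. Points above the dashed line of equal shares number 532, and 309 members are met by 1 WSU-DLCL2 island. Members were picked by their breaks in KARPAS-422, which favours points above the line.

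Where KARPAS-422 had a break, WSU-DLCL2 often had an island. It covered 58.7% of the break bases, 78.7% of the bases under KARPAS-422 pieces and 45.5% of the bases left uncovered at the ends of members. For all Pfeiffer islands of at least 50 kb the corresponding shares were 86.7% of the bases with and 51.2% of those without a KARPAS-422 island. Of the 2236 breaks 1197 (53.5%) lay wholly inside 1 WSU-DLCL2 island, and 574 had no WSU-DLCL2 base. Breaks of 3 kb lay inside a single WSU-DLCL2 island in 66.7% of cases, those of 10.5 to 24.75 kb in 32.3% and those over 25 kb in 30.3%. A shorter break lies more easily within 1 island. By bases the classes differed less, from 69.0% of the 3 kb breaks to 54.0% of those of 10.5 to 24.75 kb.

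The state of WSU-DLCL2 over long Pfeiffer islands varied with that of KARPAS-422. Among Pfeiffer islands of at least 50 kb, 1 WSU-DLCL2 island met 233 of 708 members (32.9%), against 737 of 1262 islands met by 1 KARPAS-422 island (58.4%). The full rule in WSU-DLCL2 was met by 24.4% of these members and by 5.78% of the islands kept in KARPAS-422. Long Pfeiffer islands met by 3 or more KARPAS-422 islands of which at least 1 reached 50 kb had the lowest share met by 1 WSU-DLCL2 island, 20.6%. Of these 50.8% were met by 3 or more WSU-DLCL2 islands, against 32.8% of the members. This contrast pools lengths, and 278 of these 506 islands reached 150 kb, against 68 of the 708 members. At 150 kb or more the shares were 62.9% of these and 64.7% of the members. Members had the higher share in each class from 75 kb up, and the lower one at 50 to 75 kb (21.0% against 26.1%). A WSU-DLCL2 list in several islands was thus not particular to members. The full rule in WSU-DLCL2 was met by 9.29% of the 506 islands, against 24.4% of the members. The gap between members and islands met by 1 KARPAS-422 island was present in each length class, with a single WSU-DLCL2 island over 42.4% against 61.3% at 50 to 75 kb, 28.9% against 60.5% at 75 to 100 kb, 28.1% against 48.9% at 100 to 150 kb and 20.6% against 49.0% at 150 kb or more. All these shares rest on the same 3 libraries.

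The 6 longest members that 1 WSU-DLCL2 island covered by at least 95% included 4 on chromosome 11, from 117440251, 119640001, 120031501 and 124986751. KARPAS-422 covered 28.7%, 17.8%, 30.6% and 20.3% of these. Input around them, relative to the median of each line, was 0.501 to 0.552 in KARPAS-422, 1.03 to 1.07 in WSU-DLCL2 and 1.00 to 1.08 in Pfeiffer. The part of this low input in the broken state was not tested. The remaining 2 lay on chromosome 8 from 98802751 to 99045750 (6 pieces, 54.3% covered) and on chromosome 13 from 27421501 to 27624750. The member on chromosome 13, of 203.25 kb, had 7 KARPAS-422 pieces of 7.5 to 48.75 kb with no break over 3.75 kb, and 89.7% of it was covered. Its H3K27me3 reads per kb were 17.8 to 27.1 in KARPAS-422, 40.5 in WSU-DLCL2 and 23.8 in Pfeiffer, and the input was 6.10 to 10.7, 18.2 and 11.5 reads per kb. The WSU-DLCL2 island thus held 1.69 times the median input of its list.

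Broken Pfeiffer islands held at least as many reads per kb as their list as a whole, and fewer than long islands that a single KARPAS-422 island met. Members had a median of 21.9 H3K27me3 reads per kb (quartiles 19.5 and 24.9) and 11.2 input reads per kb (10.2 and 14.2), against 19.7 and 10.8 for all Pfeiffer islands. Among islands of at least 50 kb, members had 22.3 H3K27me3 reads per kb and an authors' fold over input of 1.61. Those met by 1 KARPAS-422 island had 23.6 and 1.75, those met by 2 had 22.7 and 1.70, and those met by none had 20.9 and 1.46. The 506 long islands met by 3 or more KARPAS-422 islands, of which 1 or more reached 50 kb, had the highest value of these classes, 25.7 reads per kb, and a fold of 1.78. The quartiles of members (19.97 to 25.5 reads per kb) and of islands met by 1 KARPAS-422 island (20.9 to 26.97) overlapped widely. Their median input was 11.4 and 11.5 reads per kb in the same order, with upper quartiles of 14.6 and 12.4.

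The pieces in KARPAS-422 resembled other islands of that list. They had a median of 20 H3K27me3 and 7.33 input reads per kb, against 20.1 and 7.50 for the whole list, and a median fold of 1.66 against 1.61. At equal length the pieces held slightly more H3K27me3 reads than other KARPAS-422 islands at 5 to 10 kb (20.4 against 19.9 per kb) and at 10 to 20 kb (19.3 against 18.8), but not at 20 to 50 kb (20.05 against 20.08). Counts were smaller in pieces, with medians of 284.5 H3K27me3 and 105 input reads per piece, against 1669.5 and 903 per Pfeiffer member. Islands of KARPAS-422 that alone met a long Pfeiffer island had 23.8 H3K27me3 reads per kb. WSU-DLCL2 islands meeting members had 21.0 H3K27me3 and 10.7 input reads per kb, against 20.9 and 10.7 for their list.

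With each value divided by the median of its own list, the pieces of a member held less than the Pfeiffer island in 620 of 852 cases for H3K27me3 and in 577 for input. The median ratio of KARPAS-422 pieces to the Pfeiffer island was 0.915 for H3K27me3 (quartiles 0.799 and 1.01) and 0.913 for input (0.745 and 1.04). For long Pfeiffer islands met by 1 KARPAS-422 island these ratios were 0.981 and 0.956. H3K27me3 and input thus differed in the same direction, and the part of input in the H3K27me3 difference was not tested. The converse set, with the lines exchanged, showed the same direction. Its whole KARPAS-422 islands had relative medians of 1.12 for H3K27me3 and 1.10 for input, against 0.969 and 0.973 in their Pfeiffer pieces. Lower values in pieces than in whole islands were thus found with either line as the breaking line.

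Members that kept less in KARPAS-422 also kept less in WSU-DLCL2 and had lower folds in Pfeiffer. The 213 members with the lowest covered share had a median of 65.6% covered in WSU-DLCL2 and a Pfeiffer fold of 1.51. The next 213 had 78.0% and 1.59, the following 213 had 87.5% and 1.64, and the 213 with the highest share had 89.0% and 1.71. Pfeiffer H3K27me3 reads per kb showed no such order (22.2, 21.5, 21.4 and 22.4), while Pfeiffer input reads per kb were 12.8, 11.3, 11.0 and 11.1. The KARPAS-422 pieces held 19.2, 19.7, 20.4 and 21.0 H3K27me3 reads per kb in the same order.

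More Pfeiffer islands were broken in KARPAS-422 than KARPAS-422 islands in Pfeiffer. There were 852 broken Pfeiffer islands and 261 broken KARPAS-422 islands, a ratio of 3.26, or 4.24 when each count is taken as a share of its list. With islands of the breaking line joined where they lay less than 5 kb apart, 158 Pfeiffer and 58 KARPAS-422 islands met the rule. Joining closes short breaks and also lengthens pieces past 50 kb, and these effects were not separated. The 852 and 261 islands covered 75 Mb (10.2% of the bases of the Pfeiffer list) and 25 Mb (3.51% of the bases of the KARPAS-422 list). Of islands of at least 50 kb, 19.0% of 3725 in Pfeiffer and 7.32% of 3060 in KARPAS-422 were broken in the other line. The Pfeiffer share was the higher one in each length class. The exact intervals take islands of 1 library per line as independent, so whether they overlap is no test between lines. At 150 kb or more it was 12.1% (9.54 to 15.1%) against 8.56% (5.93 to 11.9%), and these intervals overlap. The limit on piece length enters most in that class, where 49.6% of the Pfeiffer islands met 3 or more KARPAS-422 islands of which at least 1 reached 50 kb.

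**Figure D4:**
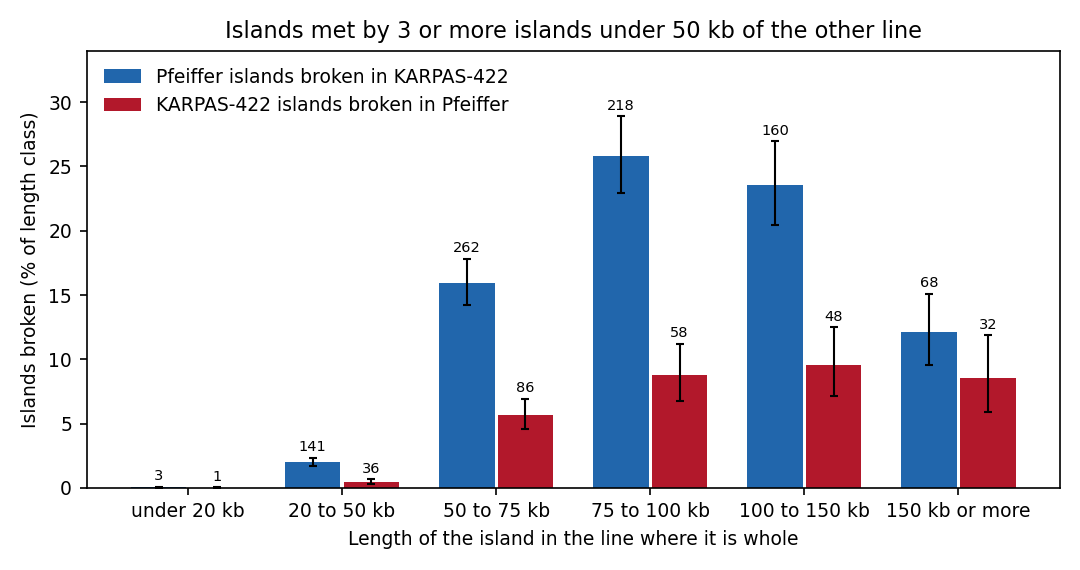
Share of islands, in percent of their length class, that at least 3 islands under 50 kb of the other line overlap, for Pfeiffer islands broken in KARPAS-422 (blue) and KARPAS-422 islands broken in Pfeiffer (red). Bars carry 95% exact binomial intervals and the number of broken islands, and the blue bar is the higher one in every class, with 25.8% against 8.77% at 75 to 100 kb.

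The broken islands of both directions had similar medians. The same rule chose both sets, so likeness in length, covered share and break length is partly built in. Median lengths were 77.25 kb in Pfeiffer members and 78.75 kb in the converse set, and the share still covered had medians of 72.3% and 72.7%. Breaks had medians of 3.75 and 4.5 kb, and breaks of exactly 3 kb were 34.1% and 31.9%. Breaks of at least 10 kb were 20.1% in members and 26.1% in the converse set. The highest number of pieces was 16 in members and 8 in the converse set. A single WSU-DLCL2 island met 36.3% of the members and 31.8% of the converse set, and WSU-DLCL2 covered 58.7% and 52.0% of the break bases. Of the 23066 WSU-DLCL2 islands KARPAS-422 broke 776 (3.36%) and Pfeiffer broke 333 (1.44%). KARPAS-422 was thus the breaking line in the pairs with the highest counts. The KARPAS-422 list as a whole has more and shorter islands than the Pfeiffer list (27589 with a median of 15.75 kb, against 21258 with 20.25 kb), and its part in these counts cannot be told apart from the broken state.

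The longest broken KARPAS-422 islands included 3 on chromosome 11, from 92351251 (425.25 kb, 6 Pfeiffer pieces, 25.04% covered), from 101793001 (424.5 kb, 7 pieces, 24.9%) and from 109752751 (327 kb, 4 pieces, 21.8%). Relative input around these was 2.38, 2.39 and 3.28 in KARPAS-422, against 0.954, 1.02 and 1.01 in Pfeiffer. Those on chromosome 14, from 34302001 and 89661751, had 8 and 7 pieces at relative inputs of 1.42 and 1.44 in KARPAS-422, against 0.896 and 0.962 in Pfeiffer. On chromosome 7 from 157523251 to 157880250 (357 kb, 8 pieces, 39.1% covered) the input was lower in KARPAS-422, 0.887 against 1.02 in Pfeiffer, and WSU-DLCL2 covered 96.2%.

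Members were unevenly spread over the chromosomes. Chromosome 5 held 127 members, 13.4% of its Pfeiffer islands, and chromosome 16 held 69, or 12.8%. Chromosome 8 followed with 57 (9.55%), chromosome 19 with 57 (8.12%) and chromosome 17 with 28 (5.29%). These shares are over islands of any length, and length enters the rule. Among islands of at least 50 kb, 34.1% were members on chromosome 19, 32.1% on chromosome 5, 30.2% on chromosome 16, 28.3% on chromosome 8, 25.4% on chromosome 13, 24.4% on chromosome 21, 23.5% on chromosome 6 and 17.4% on chromosome 17, against 19.0% over all autosomes. Input reads per kb of islands were divided by the value of the median chromosome. Chromosome 5 had 1.02 in KARPAS-422 against 1.42 in Pfeiffer, and chromosome 16 had 0.963 against 1.46. Chromosome 8 had 1.02 in KARPAS-422 against 1.38 in Pfeiffer, and chromosome 17 had 0.955 against 1.40. WSU-DLCL2 was raised on chromosome 8 too, at 1.37. Chromosome 19 had 0.931 in KARPAS-422 against 0.919 in Pfeiffer, and chromosome 13 had 0.965 against 0.982. Raised Pfeiffer input and a high share of members among long islands thus went together on chromosomes 5, 8 and 16 but not on chromosomes 13, 17 and 19. Chromosome 14 had 1 member and chromosome 20 had 5, at inputs of 1.41 and 1.22 in KARPAS-422 and 0.998 and 1.01 in Pfeiffer. The converse was most frequent on these, with 36 (5.19% of KARPAS-422 islands) and 24 (3.72%), and chromosomes 5 and 13 had none.

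**Figure D5:**
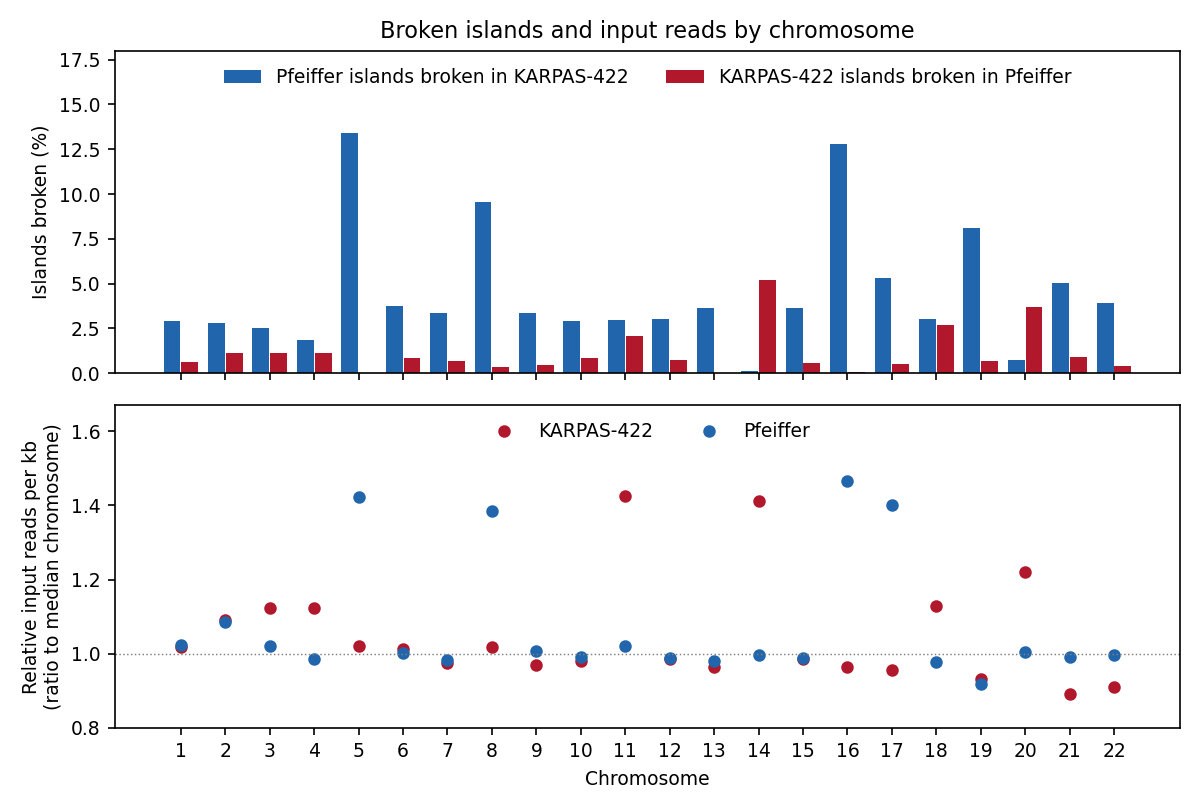
Top, share of islands broken on each autosome, in percent, for Pfeiffer islands broken in KARPAS-422 (blue) and KARPAS-422 islands broken in Pfeiffer (red). Bottom, input reads per kb of islands relative to the median chromosome of each line; chromosomes 5, 8, 16 and 17 have Pfeiffer values of 1.38 to 1.46, and chromosomes 11, 14 and 20 have KARPAS-422 values of 1.22 to 1.43.

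Input was also read around each island, pooled within 1 Mb bins and 2 Mb to either side and divided by the median of the line. It stood at 1.3 or more in Pfeiffer around 258 members (30.3%), around 23.7% of all Pfeiffer islands of at least 50 kb and around 10.4% of the whole list. Among the long islands, 246 of 883 at such input were members (27.9%), against 448 of 2772 at an input within 15% of the median (16.2%). By the input of KARPAS-422 the shares were 25.5% of 372 below 0.85, 20.2% of 3007 within 15% of the median, 2.40% of 125 from there to 1.3 and 0.930% of 215 at 1.3 or more. A KARPAS-422 input of 0.75 or less was found around 25 members. Members at raised Pfeiffer input had a median of 64.7% covered in KARPAS-422 and a Pfeiffer fold of 1.41, against 77.2% and 1.65 for members at balanced input.

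With balanced input, within 15% of the median in all 3 lines, 459 of 13880 Pfeiffer islands were broken in KARPAS-422 (3.31%) and 124 of 17490 KARPAS-422 islands in Pfeiffer (0.709%). The ratio of the counts there was 3.70. Without chromosomes 5 and 16 the counts were 656 (3.32%) and 260 (1.05%), a ratio of 2.52. Input inside the breaks is not given, since only listed islands carry counts.

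The longest members at balanced input, a set added after the values had been seen, showed various states in WSU-DLCL2. The balance holds for the pooled bins and not for each island. The longest was the member on chromosome 13 described above, where the bins of WSU-DLCL2 stood at 1.14 and its island itself at 1.69 times the median input. The next, on chromosome 4 from 40810501 to 40973250, had 7 KARPAS-422 pieces of 3.75 to 29.25 kb that covered 71.0% of 162.75 kb, and no WSU-DLCL2 island at all. H3K27me3 reads per kb were 17.8 to 25.6 in the pieces and 20.6 in the Pfeiffer island, and input was 6.19 to 8.27 and 11.2. On chromosome 2 from 177301501 to 177459000 KARPAS-422 kept 3 pieces, or 23.8% of 157.5 kb, and WSU-DLCL2 kept 62.9% in 5 islands. The Pfeiffer island had only 17.3 H3K27me3 reads per kb and the pieces 19.8 to 21.2. On chromosome 9 from 90152251 to 90302250 KARPAS-422 kept 8 pieces and 74.0%, WSU-DLCL2 kept 4 islands and 29.0%, and Pfeiffer had 1 island of 150 kb with 18.6 reads per kb. On chromosome 1 from 23858251 to 24012000 KARPAS-422 kept 84.4% in 5 pieces and WSU-DLCL2 80.0% in 4 islands.

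In 75 pairs of neighbouring Pfeiffer islands both were broken, and the members fell into 208 windows of 10 Mb. Neither number was set beside a background, so clustering cannot be read from them. The 3 windows with most members, picked by that number, were chromosome 19 from 1 to 10000000 with 23 of 140 Pfeiffer islands, chromosome 5 from 70000001 to 80000000 with 17 of 82 and from 170000001 to 180000000 with 16 of 69. Relative input in the first of these was 0.764 in KARPAS-422 and 0.876 in Pfeiffer, while it was 1.01 and 1.39, and 0.947 and 1.49, on chromosome 5. On chromosome 6 from 1 to 10000000, with 13 of 136 islands, input was close to the median in both lines, 0.985 and 1.03.

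The values nearest the 50 kb limit differed by a single window of 750 bases. Just inside, members on chromosome 1 from 7371751 (4 pieces) and on chromosome 16 from 9228001 (5 pieces) had a longest piece of 49.5 kb. Just outside, Pfeiffer islands on chromosome 1 from 44902501 (4 pieces) and from 151931251 (3 pieces) had one of 50.25 kb. In all, 522 Pfeiffer islands with 3 or more KARPAS-422 islands were left out by a piece of 50 kb or more, and 2068 met exactly 2 KARPAS-422 islands, both under 50 kb.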

How the data were processed

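Chromatin immunoprecipitation sequencing (ChIP-seq) with an anti-H3K27me3 antibody (Millipore) and input were measured in 3 lymphoma lines, with 1 library of each kind per line. Per the submitters' processing notes, Bowtie, SICER and hg19 were used, with versions not given in the sources used here. The deposited list names give windows of 750 bases, bridged gaps of 3 windows and a cutoff of 0.001 on the false discovery rate. For each island the authors deposited the counts of H3K27me3 and input reads, a p-value, a fold ratio over input and a q-value. Levels here are counts divided by island length, and relative values are these divided by the median island of the line. Island overlaps, pieces and breaks were computed with Python 3.11.15, numpy, pandas and scipy, and the interval functions were checked on simulated islands. Printed intervals are 95% exact binomial intervals and cover counting error only.

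The members, lists and classes were chosen with earlier results of these data known. Named domains are the 6 longest, the 6 with most pieces, the 4 with the lowest and the 4 with the highest covered share among members of at least 50 kb, the 6 longest that 1 WSU-DLCL2 island covers by at least 95%, the 4 longest with 3 or more WSU-DLCL2 islands, the 4 with the longest break, the 6 longest converse islands and those nearest the 50 kb limit. The 6 longest at balanced input were added after the values had been seen. The alternatives changed the number and length of pieces, overlap, fold, q-value, list size, joining of islands, input balance and chromosomes.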

Additional observations from a re-analysis of the deposited data

How the results depend on the processing

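Broken Pfeiffer islands outnumbered broken KARPAS-422 islands under all 17 alternatives, with a ratio of 1.81 to 4.44. Not all of these could change the outcome. An overlap of at least 750 bases left 852 and 261, since islands are made of windows of 750 bases. Chromosome X added only 1 and 0. The counts themselves moved: 2920 and 1609 with 2 or more pieces, 289 and 74 with 4 or more, 1374 and 485 with no limit on piece length, 479 and 139 with pieces under 30 kb, 459 and 124 at balanced input, 400 and 90 where islands of every list needed a fold of 1.5 or more, 478 and 118 where the breaking line alone did, and 427 and 111 at a q-value of at most 1e-10. Joining islands less than 5 kb apart left 158 and 58, and joining those less than 10 kb apart left 41 and 19, which closes short breaks and also lengthens pieces past 50 kb. With lists of equal number the counts were 592 and 259, a ratio of 2.29.

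The median share covered in KARPAS-422, 72.3% as reported, was 75% with 2 or more pieces, 71.0% with 4 or more, 80.0% with no piece limit, 77.7% with pieces under 100 kb, 65.0% under 30 kb, 77.2% at balanced input, 70.0% with a fold of at least 1.5 in the breaking line, 58.7% and 44.2% after joining below 5 and 10 kb, and 74.5% without chromosomes 5 and 16. The median break was 10.5 and 16.9 kb after joining below 5 and 10 kb. Break bases covered in WSU-DLCL2, 58.7% as reported, were 56.6% with 4 or more pieces, 61.5% at balanced input, 55.0% after joining below 5 kb, 56.6% with the fold limit in every list, 63.9% with it in the breaking line, 56.1% at the stricter q-value and 67.2% without chromosomes 5 and 16.

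The share met by 1 WSU-DLCL2 island, 36.3% as reported, was 52.5% with 2 or more pieces, 24.9% with 4 or more, 30.6% with no piece limit, 32.7% with pieces under 100 kb, 40.3% under 30 kb, 27.8% and 26.8% after joining below 5 and 10 kb, 45.0% with the fold limit in every list, 42.9% at the stricter q-value, 32.9% for islands of at least 50 kb and 40.2% without chromosomes 5 and 16. The last 2 alternatives were chosen after seeing the data. The relative H3K27me3 reads per kb of the pieces, 0.996 as reported, were 1.01 at balanced input, 1.05 and 1.04 with the fold limit in every list and in the breaking line, 1.02 with equal numbers of islands, 1.04 with no piece limit, 1.02 with pieces under 100 kb, 0.982 under 30 kb, 1.04 at the stricter q-value and 1.01 without chromosomes 5 and 16. Their relative input, 0.978 as reported, was 0.970 with 4 or more pieces, 0.993 at balanced input, 0.889 and 0.901 with the fold limits, 0.937 with equal numbers, 0.968 under 30 kb and 0.904 at the stricter q-value. The relative H3K27me3 reads per kb of the broken Pfeiffer islands, 1.11 as reported, were 1.03 at balanced input, 1.18 with 4 or more pieces and 1.07 without chromosomes 5 and 16. Their relative input, 1.04 as reported, was 0.985, 1.14 and 1.00 under the same alternatives. The limits for calling a value moved differ in width. A count had to change by more than 1.5 times. A median had only to leave its own 95% interval, taken from the ranked values, and a share its own 95% binomial interval. For break bases that interval used the number of breaks as its sample size. A value not printed here is therefore not shown to be stable. Reads per kb were not computed after joining, since reads in the joined stretches are not listed. The cause of these shifts was not tested beyond how each alternative is built.

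No paired analysis was possible because each line has 1 H3K27me3 and 1 input library, and replicates could not be left out in turn. KARPAS-422 had the fewest H3K27me3 and input reads in its islands. These are not library totals, and the part of depth in the breaks was not tested.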

Other observations

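Chromosome X was kept out of the counts above. There, 1 of 60 Pfeiffer islands was broken in KARPAS-422, and 0 of 883 KARPAS-422 islands were broken in Pfeiffer. A piece that was itself a KARPAS-422 island broken in Pfeiffer was found in 2 of the 852 members.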
